A study of Mus musculus with 4 samples.

Results

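The genes described here encode the subunits of the 5 complexes of oxidative phosphorylation. They were taken by symbol: Nduf genes of the a, b, c, s and v series, Sdha to Sdhd, Uqcr genes, Cox4 to Cox8 genes, Atp5 genes and the mt-Nd, mt-Co, mt-Cytb and mt-Atp genes. Of the 19090 genes in the count matrix, 106 matched, and 2 of these, Atp5j and Atp5o, lie in the duplicated segment of the Dp16 mice and were set apart by the rule. The 104 members comprise 91 genes of the nuclear genome and 13 of the mitochondrial genome (mt). Of the nuclear members, 89 had a mean over sections of at least 5 CPM (counts per 1000000 UMIs of the section), as had all 13 mt members. Cox4i2 and Cox7b2, at 4.05 to 4.86 and 1.33 to 1.89 CPM, did not.

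Spatial gene expression was measured with the Visium assay in 4 brain hemisphere sections of 10 µm from male mice aged 9 months, 1 section per genotype. The labels give the same range of section planes for all 4, bregma 1 to -2 mm. A difference in plane between sections cannot be read from that range, and its part in the values was not tested. The genotypes were wild-type C57BL/6J, Dp16, 5xFAD and the cross 5xFAD-Dp16, and 4 values in a row are given in that order throughout. Dp16 mice carry an extra copy of the mouse chromosome 16 segment homologous to the human chromosome of Down syndrome. 5xFAD mice carry transgenes with familial Alzheimer's disease mutations under the neuronal Thy1 promoter, and 5xFAD-Dp16 mice carry both alterations. The labels give a strain for the wild-type mouse only. Spot numbers were 2721, 2540, 2347 and 2941, with 26049860 to 36461389 unique molecular identifiers (UMIs) per section and a median of 9404 to 11639 per spot. A spot can hold several cells. With 1 animal per genotype there is no test between genotypes: each pair compares 2 sections, and intervals cover counting error only.

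In oxidative phosphorylation, complexes I, III and IV pass electrons to oxygen and pump protons across the inner mitochondrial membrane, complex II feeds in electrons from succinate, and complex V, ATP synthase, makes ATP from the proton gradient. The mitochondrial genome encodes only hydrophobic core subunits of complexes I, III, IV and V, transcribed within the organelle, and the nuclear genome encodes all others. Complex II is wholly nuclear. The brain draws most of its ATP from this pathway, and mitochondria lie in dendrites and axons as well as in cell bodies. Several complex IV subunits have a widely expressed isoform and one restricted to certain tissues.

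Many nuclear subunit genes are known targets of NRF-1 and of ETS-family factors such as GABP, so their promoters were read for the core letters of both. Of the 91 nuclear members, 73 matched a RefSeq promoter by symbol (build GRCm38.p6, 300 bases, from 250 before the gene start to 50 after it). The NRF-1 core CGCATGCG, which reads the same on both strands, stood in the promoters of 10 of these 73 genes (13.7%), against 2.07% of all 27025 genes in the promoter table. The ETS letters CCGGAAGT, searched on both strands, stood in 5 (6.85%), against 4.31% of all genes. The 10 genes with the NRF-1 core were Atp5g2, Atp5k, Atp5l, Cox6a1, Ndufa11, Ndufa8, Ndufaf4, Ndufaf5, Uqcr11 and Uqcrc1. The 5 with the ETS letters were Atp5h, Cox8a, Ndufs3, Uqcr11 and Uqcrh, and Uqcr11 alone held both among the 73. The windows below are 60 bases each around a match, in the gene's own direction, and are shown because they cover complexes I, III, IV and V and the gene with both motifs. Capitals mark the matched letters, and ACTTCCGG is the ETS motif on the opposite strand.
Uqcr11 NRF-1 window, chr10:80406793-80406852, minus strand: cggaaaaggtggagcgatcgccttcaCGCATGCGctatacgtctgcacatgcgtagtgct
Uqcr11 ETS window, chr10:80406854-80406913, minus strand: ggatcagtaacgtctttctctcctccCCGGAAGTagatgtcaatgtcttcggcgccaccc
Atp5g2 NRF-1 window, chr15:102671055-102671114, minus strand: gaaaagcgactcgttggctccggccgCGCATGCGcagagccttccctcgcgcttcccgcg
Atp5k NRF-1 window, chr5:108434415-108434474, minus strand: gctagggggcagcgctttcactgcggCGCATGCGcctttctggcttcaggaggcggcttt
Ndufa11 NRF-1 window, chr17:56717677-56717736, plus strand: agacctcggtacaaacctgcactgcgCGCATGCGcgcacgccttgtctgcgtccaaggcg
Cox6a1 NRF-1 window, chr5:115349086-115349145, minus strand: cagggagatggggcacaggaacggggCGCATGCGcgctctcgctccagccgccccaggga
Ndufaf4 NRF-1 window, chr4:24897945-24898004, plus strand: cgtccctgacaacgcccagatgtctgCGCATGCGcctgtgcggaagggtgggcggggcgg
Atp5h ETS window, chr11:115419925-115419984, minus strand: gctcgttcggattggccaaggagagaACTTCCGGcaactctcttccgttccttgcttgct
A match is a description of these letters and not a measured binding site.

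The 4 sections differed little in the share of UMIs that came from subunit genes, and mt members gave more UMIs than nuclear members in each. Nuclear members made up 5.20%, 5.70%, 5.46% and 5.75% of UMIs. The mt members made up 14.4%, 15.0%, 14.0% and 14.3%. Nuclear shares were thus higher in all 3 altered genotypes than in wild-type, with Dp16 and 5xFAD-Dp16 the highest, and mt shares kept no such order. The ratio of mt to nuclear UMIs, which needs no scaling between sections, was 2.78, 2.64, 2.56 and 2.49. In bulk sums such as these, fewer cells of a type and less RNA per cell cannot be told apart.

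Of the mt messages, mt-Co3, mt-Co1 and mt-Atp6 gave the most UMIs. Counts from the 3' end compare one gene between sections, not one gene with another, so the levels are set side by side within a gene only. mt-Co3, a core subunit of cytochrome c oxidase (complex IV), was at 29778, 30898, 28187 and 31333 CPM. mt-Co1, which holds the oxygen-reducing site of the same complex, was at 24245, 25885, 23375 and 20790 CPM. It stood lowest in 5xFAD-Dp16, where mt-Co3 stood highest. mt-Cytb, the cytochrome b of complex III, was at 15422, 15887, 14210 and 15837 CPM. mt-Nd6, the only subunit message made from the other strand of the mitochondrial genome, was at 25.4, 27.8, 22.5 and 24.8 CPM. mt-Atp6, which lines the proton channel of ATP synthase, was at 25484, 25760, 24134 and 24261 CPM. mt-Co2, which receives electrons from cytochrome c, was at 16528, 16928, 16415 and 16338 CPM. Other complex I messages were mt-Nd2 (10063, 10857, 9991 and 10765 CPM), mt-Nd1 (8430, 9041, 8700 and 8606 CPM), mt-Nd3 (2563, 2923, 3016 and 2758), mt-Nd4 (10169, 10315, 9851 and 10513), mt-Nd5 (1195, 1269, 1182 and 1284) and mt-Nd4l (312, 367, 342 and 352), which encode proton-pumping or supporting membrane subunits.

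Dp16 was read in 2 pairs that share no section: first Dp16 over wild-type, then the cross over 5xFAD. From each log2 ratio of CPM the median ratio of the 11033 genes with at least 5 CPM was subtracted, since that median lay at -0.13 and -0.07 in these pairs; the result is called a relative log2 ratio. Nuclear subunit messages were shifted upward as a group in both pairs, mostly by small amounts. Of 89 nuclear members, 87 and 78 lay above the median of all genes (50% of all genes by construction), and 77 were above it in each pair, against 32.3% of all genes. Their median relative log2 ratios were 0.25 and 0.16. At least 1.2-fold higher were 38 of 89 in the first pair (13.6% of all genes) and 11 in the second (7.7%), and 1 and 0 were at least 1.2-fold lower (10.8% and 6.74%). Without centring on the median, 4 and 2 were higher and 1 and 0 lower by that fold, while 6.59% and 3.75% of all genes were higher and 26.1% and 13.8% lower.

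Other abundant messages lay above the median too, which was looked at after the values were known. The 80 ribosomal protein genes, which encode the protein part of ribosomes, had median relative log2 ratios of 0.26 and 0.12, with 80 and 70 above the median. The 1480 genes of at least 100 CPM that are no members had 0.07 and 0.08, and 63.0% and 66.2% of them lay above it. Nuclear members of at least 100 CPM, 76 genes, had 0.25 and 0.16. What the subunits share with these genes was not tested. Cell type markers differed between sections as well: the 12 neuronal markers summed to 5536, 4440, 4758 and 4346 CPM and the 8 oligodendrocyte markers to 6496, 5056, 5295 and 4866 CPM, both highest in wild-type. The 8 astrocyte markers summed to 2071, 1944, 2034 and 1877 CPM and the 10 microglial markers to 646, 556, 1384 and 1249 CPM, with no marker of these lists at 0, and their part in the subunit values was not tested.

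Past 1.2-fold in both pairs were 5 nuclear members on the higher side (2.98% of all genes) and none on the lower (1.54%). Ndufc2, an accessory subunit of the membrane arm of complex I, was at 485, 547, 497 and 589 CPM, and its relative log2 ratios were 0.30 (95% counting interval 0.27 to 0.33) and 0.32 (0.29 to 0.35). Ndufa12, also an accessory subunit of complex I, was at 519, 587, 517 and 596 CPM (0.31 and 0.28). Atp5j2, a small subunit of the membrane part of ATP synthase, was at 1113, 1245, 1180 and 1378 CPM (0.29 and 0.30). For these 3 genes both Dp16 sections lay above both sections without the duplication. Ndufaf2 and Ndufaf6, assembly factors of complex I that the symbol rule takes in, had ratios of 0.39 and 0.28, and of 0.33 and 0.33. The count of 5 was 0 without centring, 2 with TMM factors and 50 at a fold of 1.1.

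Complex by complex, the medians in the 2 pairs were 0.26 and 0.17 for complex I (37 genes), 0.20 and 0.08 for complex II (4), 0.31 and 0.14 for complex III (8), 0.24 and 0.15 for complex IV (17), 0.25 and 0.10 for complex V (15) and 0.19 and 0.22 for the 8 assembly factors. In complex I, Ndufv3, a subunit of the NADH-oxidising module, was at 439, 530, 470 and 526 CPM (0.40 and 0.23). In complex III, Uqcrb, which binds ubiquinone, was at 508, 582, 528 and 598 CPM (0.33 and 0.25). In complex IV, Cox8a, the ubiquitous isoform of subunit 8, was at 2327, 2503, 2309 and 2861 CPM (0.24 and 0.38). Both sections with the duplication lay above both others for each of these 3 messages. Uqcr11, whose promoter held both motifs, was at 928, 1092, 1064 and 1115 CPM (0.37 and 0.14), and stood lowest in wild-type. Members with the NRF-1 core (10) and without it (62) had medians of 0.25 each in the first pair, and 0.15 and 0.16 in the second.

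Core subunits had a lower median than accessory ones in both pairs. A grouping made after the values were seen put 19 nuclear genes in the core: the conserved subunits of complex I, all of complex II, the large and Rieske subunits of complex III and the catalytic head of ATP synthase. The core had medians of 0.20 and 0.08 and the 62 accessory subunits 0.28 and 0.16. Ndufs1, the largest iron-sulfur subunit of complex I, was at 117, 103, 107 and 96.3 CPM (-0.05 and -0.08). Sdha, the flavin subunit of complex II, was at 269, 249, 256 and 238 CPM (0.02 and -0.03). Atp5b, the catalytic beta subunit of ATP synthase, was at 1124, 1053, 1066 and 955 CPM (0.04 and -0.09), and Atp5a1, the alpha subunit, at 823, 806, 772 and 731 CPM (0.10 and -0.01). These 4 messages were lowest in 5xFAD-Dp16 and highest in wild-type as CPM. Not all core genes stood so low: Sdhd, a membrane anchor of complex II, had 0.25 and 0.27.

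Of the 3 most abundant nuclear messages of each complex, most showed the same small upward shift, and some of them are given in other paragraphs. Sdha of complex II, at 0.02 and -0.03, did not show it in either pair. Atp5md of complex V showed little of it in the second pair. In complex I, Ndufa13 was at 846, 964, 890 and 972 CPM (0.32 and 0.20), Ndufb9 at 674, 724, 704 and 740 (0.23 and 0.15) and Ndufc1 at 654, 737, 700 and 762 (0.30 and 0.20), all accessory subunits. In complex II, Sdhb, its iron-sulfur subunit, was at 243, 255, 250 and 266 CPM (0.20 and 0.16). In complex III, the small subunits Uqcrh and Uqcrq were at 922, 1063, 946 and 1054 CPM (0.34 and 0.23) and at 939, 1043, 999 and 1074 CPM (0.28 and 0.18). Uqcrc2, a less abundant large subunit facing the matrix, had the lowest ratio of complex III in the first pair. It was at 185, 183, 181 and 174 CPM (0.11 and 0.01). In complex IV, Cox6c was at 2274, 2591, 2426 and 2551 CPM (0.32 and 0.15). In complex V, Atp5md, which helps ATP synthase form dimers, was at 1617, 1908, 1867 and 1833 CPM (0.37 and 0.05) and Atp5e at 1111, 1203, 1230 and 1242 CPM (0.25 and 0.09). In wild-type both of these complex V messages stood lowest, and the 2 sections with 5xFAD differed little.

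**Figure D1:**
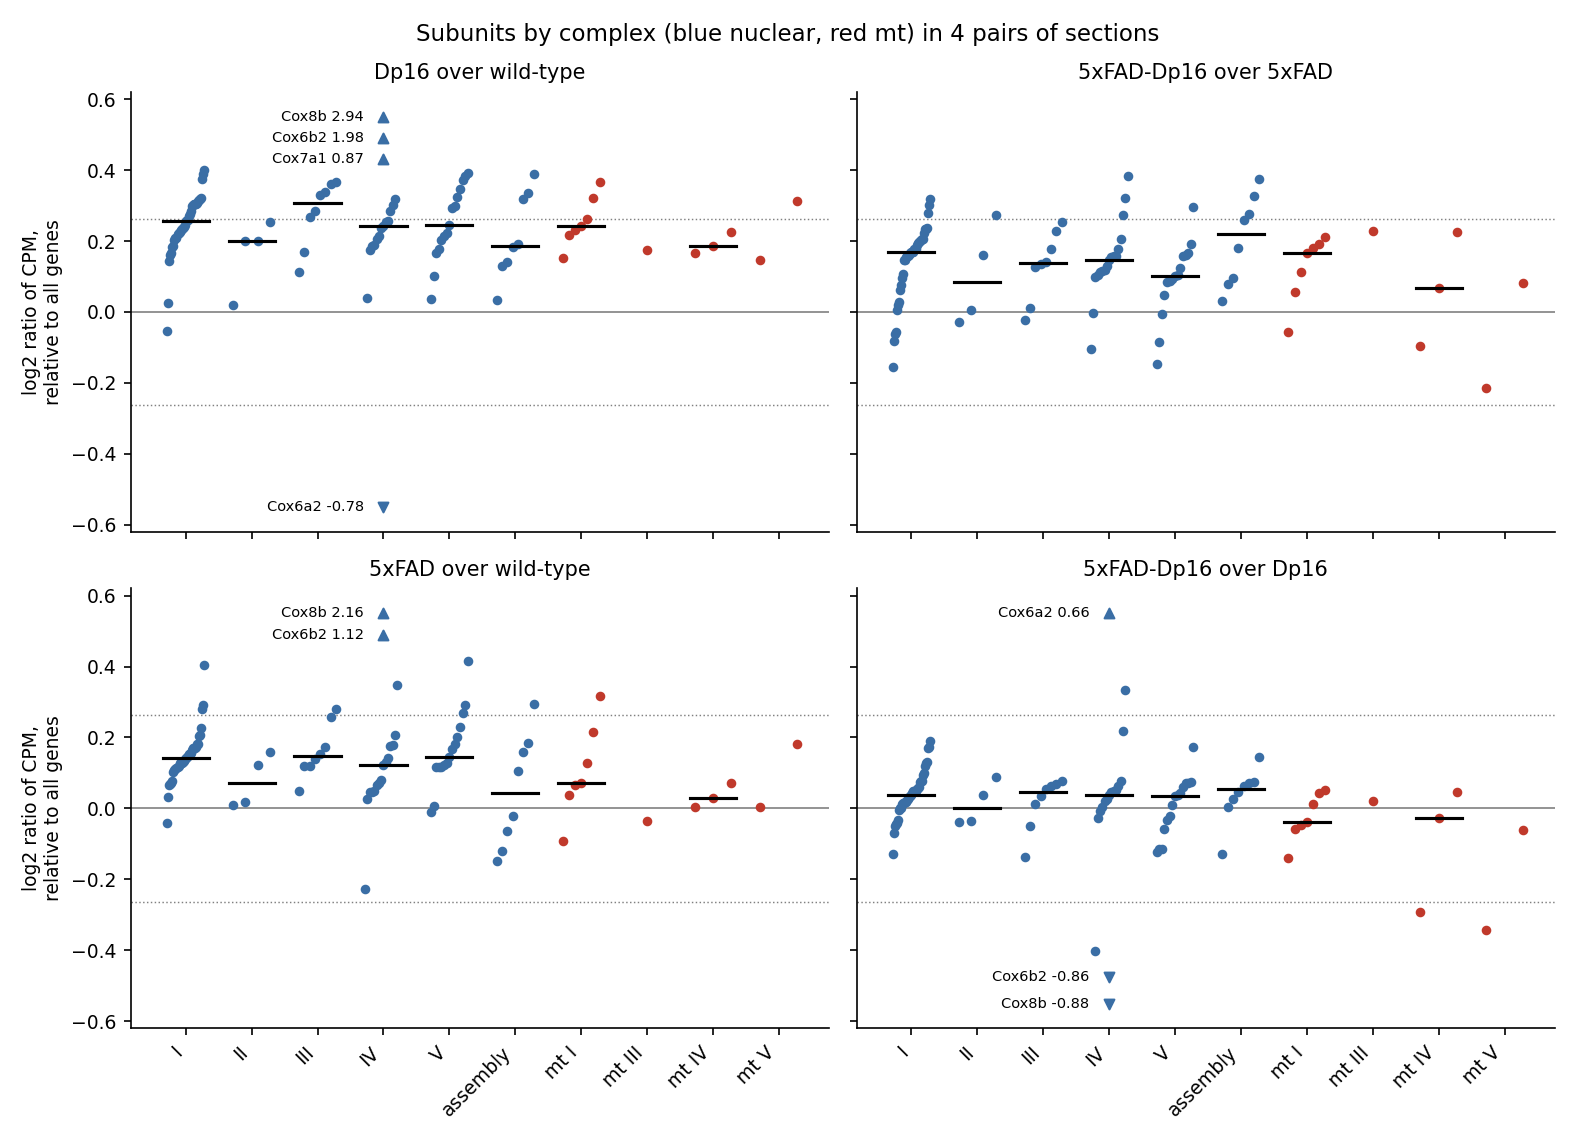
Log2 ratio of CPM relative to the median of all genes for each member with at least 5 CPM, by complex, in the 4 pairs of sections. Bars are medians for sets of at least 3 genes, dotted lines mark 1.2-fold, and triangles give members beyond the axis with their values; most nuclear members lie between 0 and the upper dotted line in the Dp16 pairs.

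The mt members stood above the median as a group in the first Dp16 pair and less uniformly in the second. Above the median of all genes lay 13 of 13 and 10 of 13, and 10 did so in both pairs; the medians were 0.23 and 0.11. At least 1.2-fold higher were 3 and 0 of 13, and none lower (13.6% and 7.7% of all genes higher, 10.8% and 6.74% lower). Without centring none of the 13 passed on the higher side in the first pair, where the median was 0.09, and 1 passed on the lower side in the second. mt-Nd2, a core membrane subunit of complex I, had ratios of 0.24 and 0.18. The members below the median in the second pair were mt-Co1 (-0.10), mt-Nd3 (-0.06) and mt-Atp8 (-0.21). mt-Atp8, whose message overlaps that of mt-Atp6, was at 255, 290, 274 and 224 CPM. The mt to nuclear ratio differed by -0.07 and -0.04 on the log2 scale, but in Dp16 over wild-type the difference was -0.0055 without the region labelled VL and -0.0099 as a median over spots.

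The 2 subunit genes of the duplicated segment stood higher in both pairs than any member did in its lower pair. Atp5j, the coupling factor 6 of ATP synthase, was at 887, 1473, 918 and 1500 CPM (0.86 and 0.78). Atp5o, the subunit that joins the catalytic head to the stalk, was at 556, 895, 585 and 918 CPM (0.82 and 0.72). For both genes the sections with and without the duplication stood far apart. Their partners in ATP synthase that lie elsewhere had smaller ratios: the peripheral stalk subunit Atp5f1 had 0.20 and 0.09, and Atp5h 0.30 and 0.16. Ndufb4 (chromosome 16, 37647602 to 37654368), the only one on that chromosome among the 89 nuclear members with a position, was at 653, 658, 673 and 729 CPM (0.14 and 0.19).

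The 5xFAD transgenes were read in 5xFAD over wild-type and in the cross over Dp16, where the median of all genes lay at -0.08 and -0.03. Nuclear members were above the median more often than other genes in the first pair and only slightly shifted in the second. Above it lay 82 and 66 of 89, and 62 in both, against 28.9% of all genes, with medians of 0.13 and 0.04. At least 1.2-fold higher were 11 and 2 (9.54% and 6.05% of all genes) and lower 0 and 3 (8.22% and 6.92%), and none passed that fold the same way in both pairs (1.54% of all genes higher, 0.97% lower). Without centring the medians were 0.05 and 0.01, with 5 and 2 higher and 1 and 3 lower, while 5.72% and 4.93% of all genes were higher and 15.99% and 8.56% lower. Ribosomal protein genes had 0.27 and 0.15, above the nuclear members. Among members, Ndufa6 of complex I (644, 709, 701 and 784 CPM; 0.21 and 0.17) and Atp5mpl of complex V (919, 1049, 1046 and 1083 CPM; 0.27 and 0.07) were the highest of their complex by the mean of both pairs. Atp5k and Ndufa3, small subunits of ATP synthase and of complex I, stood at 0.41 each in the first pair and at -0.12 and -0.04 in the second. Both were lowest in wild-type, at 828 CPM against 896 to 1043 and at 614 against 700 to 768 in the other sections.

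The mt members had medians of 0.07 and -0.04 in the 5xFAD pairs, and 11 and 5 of 13 lay above the median of all genes. As plain CPM the first became -0.02, so its sign depends on the scaling. mt-Co1 had 0.03 and -0.29, and mt-Atp8 0.18 and -0.34. The ratio of mt to nuclear messages was lower with 5xFAD in both pairs, with differences of -0.12 and -0.09 on the log2 scale (95% counting intervals -0.121 to -0.114 and -0.090 to -0.083). Without the VL region it was -0.09 and -0.13, and as a median over spots -0.17 and -0.22. It was lower in 10 and 9 of the 12 regions compared below.

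Levels were next read by the deposited region labels, in 12 regions with at least 30 spots in each section. The sources used here do not say how these labels were made, and abbreviations are kept as deposited. Clusters follow expression, and if the region and layer labels were drawn from expression as well, differences between them partly follow from the labelling. The nuclear share of UMIs varied little, from a mean of 4.40% ± 0.21 (SD, n = 4 sections of different genotype) in FB to 6.13% ± 0.25 in Cortex PTL. The mt share ranged more widely, from a mean of 6.85% ± 1.41 in VL to 15.9% ± 1.00 in Hippocampus and 16.7% ± 1.07 in Cortex CTXsp, with Cortex OLF (16.4% to 18.1%) and CNU (13.6% to 19.2%) highest. Cortex PTL, Cortex SSp, Cortex AUC, Cortex RSP, IL and Hypothalamus were above the rest of their section in the nuclear share in 4 of 4 sections. Cortex OLF, Cortex CTXsp and Hippocampus were above it in the mt share in 4 of 4.

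VL stood apart in its mt share. There the mt share was 8.53%, 7.19%, 5.14% and 6.54%, below every other region of the same section. Its nuclear share was 4.74% to 5.88%, within the range of the other regions. The total of these shares includes the mt UMIs, so a low mt share by itself raises the nuclear share. Whether nuclear messages in VL differ apart from this cannot be read from the shares. Against the rest of each section, mt messages were lower by a log2 difference of -1.14 ± 0.29 (lower in 4 of 4 sections; two-sided exact sign-flip test over sections, p = 0.125, the smallest p that 4 sections allow, and 0.30 adjusted over 12 regions), and nuclear messages by -0.02 ± 0.09. FB was low in both: -0.46 ± 0.11 for mt and -0.36 ± 0.06 for nuclear messages, in 4 of 4 sections each. Spots in FB were shallow, with median UMIs of 6057 to 7402, and those in VL were deep, with 10675 to 22471; the part of depth was not tested. Over whole sections, the third of spots with the fewest UMIs held 17.9% to 21.2% mt UMIs and the third with the most 11.8% to 12.3%, while the nuclear share was 4.73% to 5.15% in the first and 5.38% to 6.04% in the last.

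**Figure D2:**
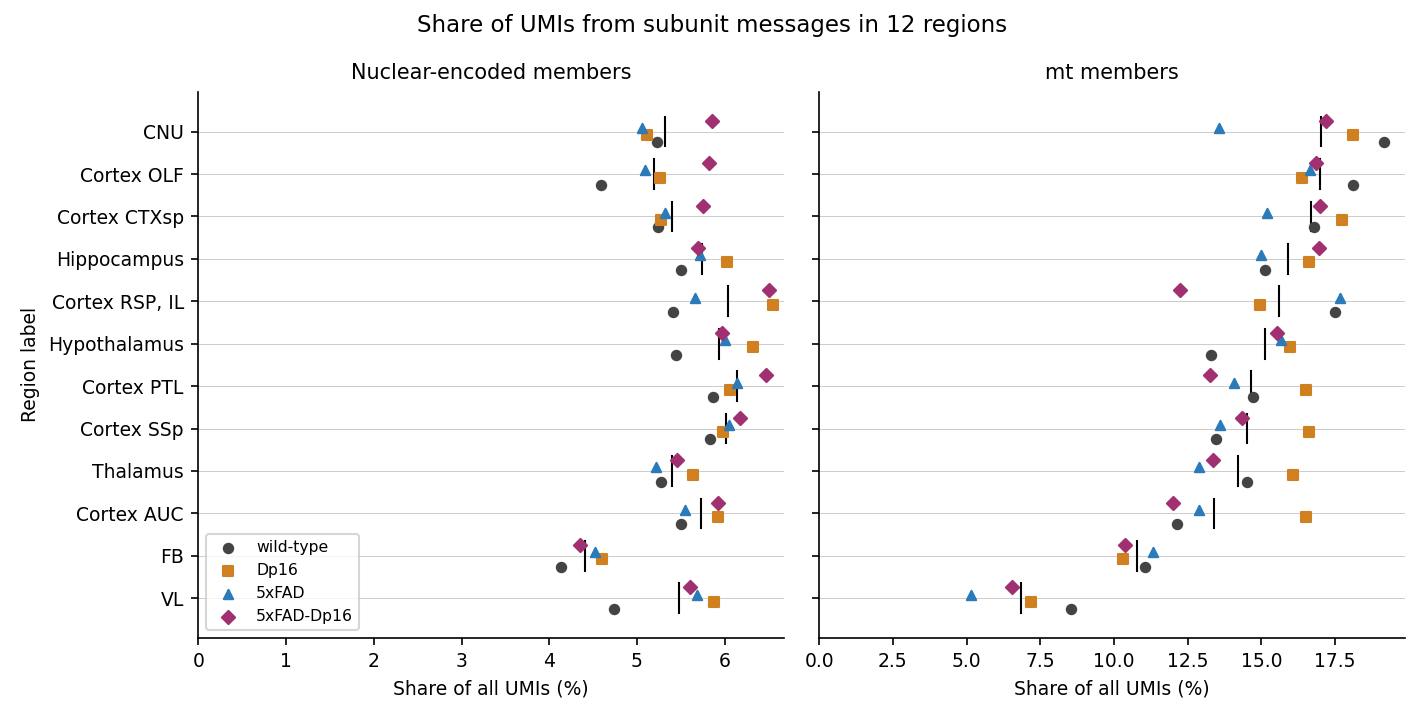
Share of all UMIs from the nuclear members (left) and the mt members (right) in 12 regions, 1 point per section, with the mean as a bar. VL has the lowest mt share in every section (5.14% to 8.53%) at a nuclear share of 4.74% to 5.88%, and FB is low in both.

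The genotype pairs were repeated within regions. Relative nuclear medians were positive in both Dp16 pairs in 11 of 12 regions, with ranges of 0.02 to 0.50 and -0.01 to 0.31. The mt medians were so in 6 of 12 regions, with ranges of -0.17 to 0.65 and -0.62 to 0.48. The nuclear medians were above in both 5xFAD pairs in 5 of 12. The nuclear medians of the Dp16 pairs thus lay mostly on the higher side, while the mt values scattered in both directions. In the second pair the nuclear medians were small in VL (0.004), FB (-0.01) and Hypothalamus (0.03). Regions of a section come from the same animal, so they do not repeat the comparison of genotypes. Across the 48 points of region and section, the median Pearson correlation was 0.92 between mt members, 0.50 between nuclear members of at least 100 CPM and 0.14 between a nuclear and an mt member. These points share libraries and depth, so the values are a description.

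Within the hippocampus the finer labels separated the dense layers of neuronal cell bodies (names ending in sp) from the other layers. The mt share differed between them several-fold. In CA1 the mt share was 6.13%, 6.89%, 4.05% and 4.24% in the cell layer, against 25.7%, 23.8%, 23.4% and 22.1% outside it. Nuclear shares of all UMIs were 5.89% to 6.47% in the cell layer and 5.17% to 5.83% outside. The total includes the mt UMIs, so the lower mt share of the cell layer by itself raises the nuclear share there. Relative to the median of all genes, nuclear members stood slightly lower in the cell layer, with medians of -0.16 to -0.31 in CA1. The 2 kinds of layer did not overlap in the mt share in any section or field. The mt to nuclear ratio was higher outside the cell layer by log2 2.34 ± 0.31 in CA1, 2.24 ± 0.18 in CA3 and 1.75 ± 0.21 in the dentate gyrus (DG; mean ± SD, n = 4 sections, higher in 4 of 4 for each field).

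By layer of CA1, the mean mt share was 31.4% ± 4.47 in CA1_slm, which by its name is the layer of distal dendrites, 27.6% ± 2.81 in CA1_sr, 16.4% ± 1.03 in CA1_so and 5.33% ± 1.40 in CA1_sp. CA1_slm held the highest mt share and the lowest nuclear share of all UMIs (4.69% ± 0.30) among the hippocampal layers. Both shares are of a total that includes the mt UMIs, so a high mt share by itself lowers the nuclear share. In DG the same order ran from 25.3% ± 4.64 in DG_mo through 9.72% ± 0.73 in DG_po to 6.20% ± 1.03 in DG_sp. DG_po was counted as outside the cell layer, though its mt share lay nearer to that of DG_sp than of DG_mo. The layers also differed in depth: in wild-type CA1 the median was 26454 UMIs per spot in the cell layer and 9418 outside. Per spot, mt UMIs were fewer in the cell layer (a mean of 1787 against 2870 in wild-type CA1, and fewer in all 12 pairs of field and section), while nuclear subunit UMIs were more numerous (1755 against 577). The number of spots per cell layer was 8 to 22, which limits the precision.

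**Figure D3:**
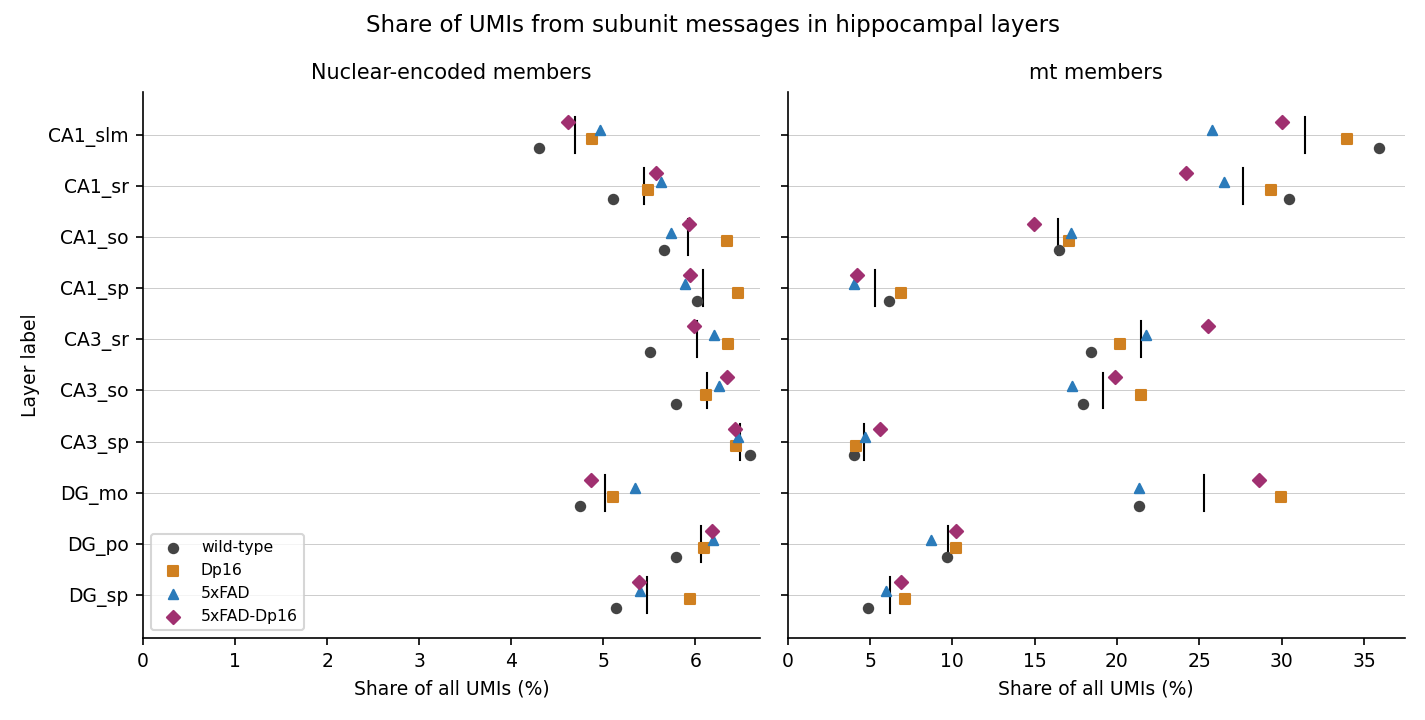
Share of all UMIs from nuclear members (left) and mt members (right) in 10 hippocampal layers, 1 point per section, with the mean as a bar. The cell layers (CA1_sp, CA3_sp, DG_sp) lie between 4.01% and 7.12% mt UMIs, and CA1_slm at 25.8% to 35.9%.

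The difference ran through the mt members one by one. Relative to the median of all genes, 13 of 13 were at least 1.2-fold lower in the cell layer than outside it in all 4 sections, in each of CA1, CA3 and DG (13.3%, 7.97% and 9.46% of all genes were). Their medians in CA1 were -2.65, -2.40, -3.19 and -3.00. mt-Cytb differed least in CA1 (-2.33 ± 0.30, n = 4) and mt-Atp8 most (-3.36 ± 0.61). Of 89 nuclear members, 25, 15 and 34 were lower in the same way, and 2, 1 and 0 higher (8.82%, 4.45% and 3.71% of all genes), but at a smaller size, with medians of -0.16 to -0.31 in CA1, -0.12 to -0.20 in CA3 and -0.28 to -0.54 in DG. Atp5e, the epsilon subunit of ATP synthase, had -0.97 ± 0.29 in CA1 and Cox8a -0.78 ± 0.13. Ndufaf7, an assembly factor that methylates a complex I subunit, was on the other side, at 0.66 ± 0.25. Cox6a2 had -2.85 ± 0.79 in CA1, a value in the range of the mt members, and is described next. Its level in CA1_sp was only 2.52 to 13.8 CPM over the sections. That value therefore rests on very few counts, with sums under 3 set to 3, unlike those of the abundant mt messages. Atp5e, Cox8a, Ndufaf7 and Cox6a2 were chosen after their values were seen.

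The tissue isoforms of complex IV showed the widest range between regions and sections. Cox8b, Cox6b2 and Cox7a1 are the forms of subunits 8, 6b and 7a known from muscle or testis, and their ubiquitous partners varied far less between sections: Cox8a as above, Cox6b1 at 905, 1017, 967 and 1026 CPM, Cox7a2 at 1323, 1374, 1322 and 1400 CPM and the related Cox7a2l at 321, 340, 332 and 346 CPM. Cox8b was at 7.51, 52.5, 31.7 and 28.1 CPM. Cox6b2 was at 11.3, 40.6, 23.2 and 22.1 CPM, and Cox7a1 at 15.8, 26.4, 19.0 and 19.6 CPM. All 3 were lowest in wild-type and highest in Dp16. Cox8b therefore had a relative log2 ratio of 2.94 (95% counting interval 2.75 to 3.13) in the first Dp16 pair but -0.10 (-0.24 to 0.03) in the second, and Cox6b2 1.98 and -0.002.

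These isoforms were at their highest regional means in VL, and Cox8b lay mostly in expression cluster 13 of the deposited table. In VL, Cox8b was at 309 CPM ± 122 (SD, n = 4 sections), Cox6b2 at 189 ± 61.7 and Cox7a1 at 91.1 ± 15.7, against means of 1.19 to 60.6, 3.52 to 38.0 and 9.88 to 24.9 in the other 11 regions. Cluster 13 held 1.47% of spots in wild-type and 2.75% to 3.28% in the other sections, but 60.3% to 69.4% of Cox8b UMIs. It held 33.7%, 55.9%, 50.9% and 45.8% of Cox6b2 UMIs and 13.4%, 33.9%, 31.2% and 25.7% of Cox7a1 UMIs, so most Cox7a1 UMIs lay elsewhere in each section. The choroid plexus markers (8 of 8 detected in each section, Ttr among them) summed to 7319, 33576, 20198 and 15331 CPM, the same order of sections as Cox8b. Without clusters 12 and 13, Cox8b was at 2.64, 18.2, 12.8 and 8.66 CPM, in the same order of sections at lower levels. Cox6b2 was then at 7.44, 18.2, 11.6 and 11.5 CPM and Cox7a1 at 14.0, 18.4, 13.8 and 14.9 CPM, where wild-type was no longer the lowest section for Cox7a1. The meningeal markers (7 of 7 detected, 51.3 to 120 CPM) were also lowest in wild-type and highest in Dp16; the part of either tissue in the genotype values was not tested.

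Cox6a2, the heart and muscle form of subunit 6a, had another pattern. It was at 62.5, 33.2, 50.4 and 51.6 CPM, with -0.78 and 0.10 in the Dp16 pairs. By region it was highest on average in Thalamus, at 145, 43.7, 89.9 and 83.5 CPM, and in VL it was 13.2 ± 12.8. In expression cluster 1 it was at 164, 118, 173 and 162 CPM, on 465, 165, 207 and 191 spots. Within that cluster the sections stood closer together, with Dp16 still the lowest, and the wild-type section held the most spots of it. Clusters follow expression, and the part of these spot numbers in the section values was not tested. Its ubiquitous partner Cox6a1 was at 1364, 1418, 1348 and 1386 CPM. Cox4i1 was at 2080, 2314, 2166 and 2230 CPM beside the few counts of Cox4i2. Ndufa4l2, the low-oxygen isoform of Ndufa4, was at 8.22 to 10.2 CPM against 1949 to 2101 for Ndufa4. The 3 genes for the ring subunit of ATP synthase, Atp5g1, Atp5g2 and Atp5g3, had ratios of 0.35, 0.21 and 0.17 in the first Dp16 pair and 0.17, 0.16 and 0.08 in the second.

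**Figure D4:**
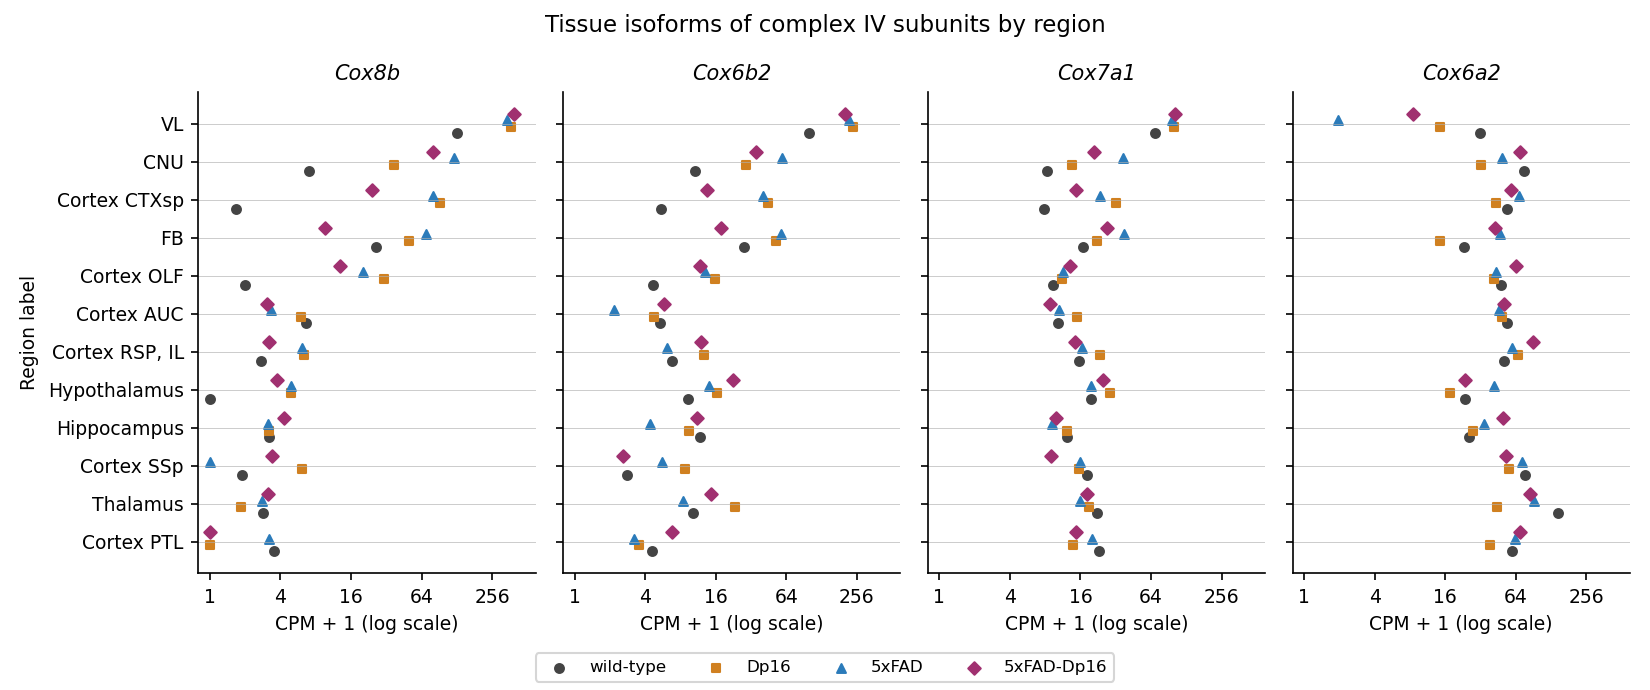
CPM + 1 on a log2-spaced axis for Cox8b, Cox6b2, Cox7a1 and Cox6a2 in 12 regions, 1 point per section. The first 3 are highest in VL in each section, and Cox6a2 reaches 145 CPM in the wild-type Thalamus and is low in VL.

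Plaque marks are given for spots of the 5xFAD and 5xFAD-Dp16 sections, with marks for neighbouring spots. The sources used here do not say how plaques were detected. Plaque spots were compared with unmarked spots of the same region, in regions with at least 10 of each: 310 against 1234 spots in 10 regions of 5xFAD and 380 against 1556 in 11 regions of 5xFAD-Dp16. The mt messages were slightly lower in plaque spots and nuclear messages slightly higher. The mt share was 13.8% in plaque spots and 14.7% in matched unmarked spots of 5xFAD, and 13.3% and 15.1% in 5xFAD-Dp16. The nuclear share was 5.54% and 5.36%, and 5.88% and 5.65%. Relative to the median of all genes, 12 and 13 of 13 mt members lay below it (50% of all genes by construction), with medians of -0.08 and -0.25, and 12 were below it in both sections (29.9% of all genes). Past 1.2-fold on the lower side were 0 and 6 of them (16.1% and 15.6% of all genes). Of nuclear members, 75 and 63 of 89 lay above the median, and 56 in both (29.9% of all genes), with medians of 0.06 and 0.05. Past 1.2-fold, 1 and 3 were higher (12% and 13.1% of all genes) and 4 and 3 lower.

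The mt value rests on which spots are compared. The mt to nuclear ratio was lower in plaque spots in 6 of 10 regions of 5xFAD and 8 of 11 of 5xFAD-Dp16, from -0.42 to 0.12 and from -0.65 to 0.14 on the log2 scale. In the hippocampus of 5xFAD-Dp16 the mt share was 14.6% in plaque spots and 19.9% in unmarked ones, and in that of 5xFAD 15.1% and 14.9%. When spots were matched by expression cluster in place of region, an alternative chosen after the layer values were seen, the mt medians were -0.010 and -0.06 and the nuclear medians 0.12 and 0.13. Within clusters the nuclear shift was larger than within regions, and the mt shift smaller. Clusters follow expression, and their mean mt share ran from 5.52% in cluster 13 to 26.6% in cluster 8. Matching by cluster therefore partly matches on the mt level itself, so the smaller mt shift is partly set by the matching. Neighbouring spots had mt medians of -0.07 and -0.19, with 13 of 13 below the median in each section (29.2% of all genes were below it in both), and 0 and 3 past 1.2-fold on that side (11.2% and 10%). Nuclear medians in neighbouring spots were 0.03 and 0.01. Past 1.2-fold on the higher side were 0 and 2 of 89 (7.85% and 7.2% of all genes), and none in both sections (1.65%). On the lower side were 2 and 1 (11.2% and 10%). Only Cox8b was lower in both (2.98%), at -1.10 (counting interval -1.47 to -0.73) and -0.71 (-1.06 to -0.36).

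Among single members, mt-Nd4l and mt-Atp8 were the lowest mt members by the mean of the sections. mt-Nd4l was at 315 CPM in plaque and 362 in unmarked spots of 5xFAD (-0.18, 95% counting interval -0.28 to -0.08), and at 297 and 383 in 5xFAD-Dp16 (-0.38, -0.47 to -0.28). mt-Nd6 had 0.09 (-0.28 to 0.46) and -0.40. Cox5a, a regulatory subunit of complex IV that binds thyroid hormone, was at 816 and 695 CPM in 5xFAD (0.25, 0.19 to 0.32) and at 959 and 798 in 5xFAD-Dp16 (0.26, 0.20 to 0.31). Matched by cluster, Cox5a stood at 0.36 and 0.29, and it was the member with the narrowest interval among the 5 highest. Cox6a2 was at 64.3 and 52.8 CPM (0.30) and at 76.8 and 47.8 CPM (0.68). Without the region labelled Hypothalamus its 5xFAD value was -0.05, and matched by cluster the values were 0.03 and 0.17. Ndufa10, Ndufaf4 and Ndufaf6 completed the 5 highest, at 0.10 to 0.23 in 5xFAD and 0.23 to 0.42 in 5xFAD-Dp16.

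At least 1.2-fold higher in plaque spots of both sections was 1 nuclear member, Cox6a2 (4.17% of all genes), and at least 1.2-fold lower were 2, Cox6b2 and Cox8b (5.76%). Cox6b2 was at 10.2 and 19.5 CPM in 5xFAD and 9.49 and 11.4 in 5xFAD-Dp16, and Cox8b at 14.3 and 19.0, and at 3.81 and 5.08 CPM. The counting intervals of Cox6b2 in 5xFAD-Dp16 (-0.77 to 0.23) and of Cox8b in both sections (-0.79 to 0.02 and -1.23 to 0.38) held 0. In neighbouring spots the intervals of Cox8b lay below 0 in both sections. Choroid plexus markers were lower in plaque spots too, with 8 and 5 of 8 at least 1.2-fold lower, as were 6 and 7 of 7 meningeal markers. Microglial markers were higher by log2 1.42 and 1.33 as a sum, with 9 and 10 of 10 at least 1.2-fold higher, and neuronal markers by 0.11 and 0.18, with 0 and 1 of 12 past 1.2-fold higher and 0 and 2 lower. Oligodendrocyte markers differed by 0.02 and 0.25 (1 and 5 of 8 past 1.2-fold higher), vessel markers by -0.09 and -0.36 (2 and 5 of 8 lower) and blood markers by 0.56 and -0.79. The part of these cells in the subunit values was not tested. Median UMIs per spot were 10287 in plaque and 9088 in unmarked spots of 5xFAD, and 10835 and 11794 in 5xFAD-Dp16. With spots thinned to 5000 UMIs the mt medians were -0.05 and -0.22; this left out shallower spots, 24 plaque and 178 unmarked in 5xFAD and 22 and 174 in 5xFAD-Dp16.

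**Figure D5:**
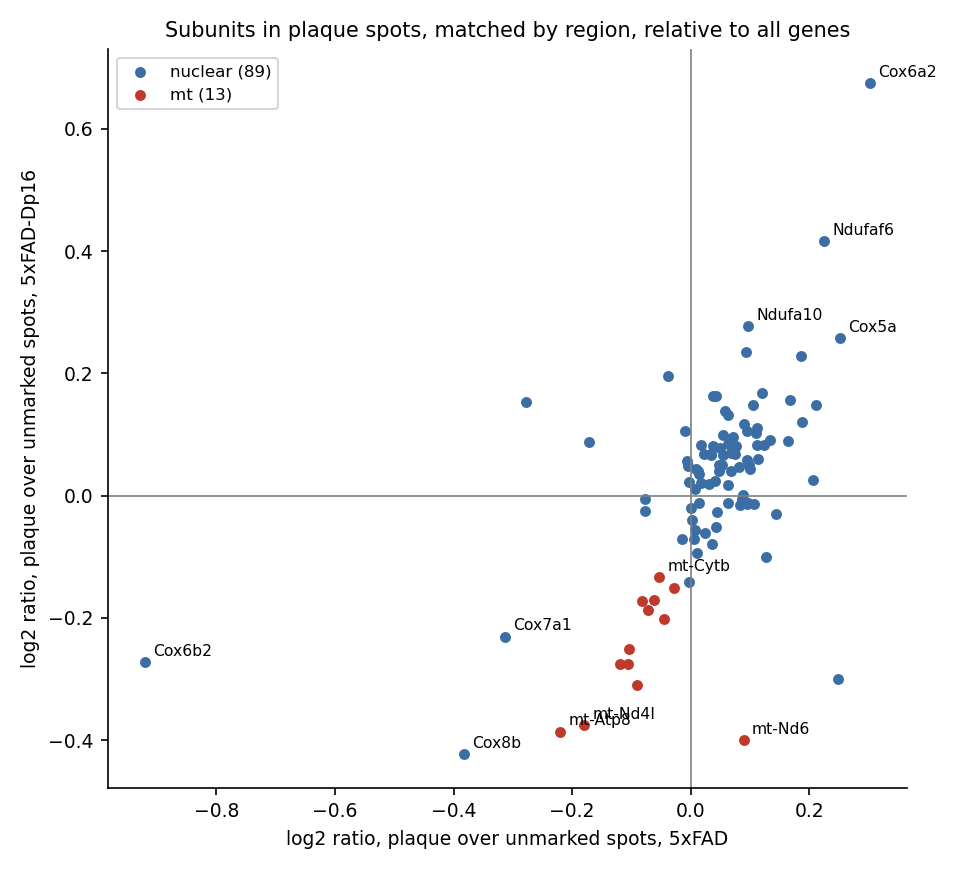
Log2 ratio of plaque over unmarked spots matched by region, relative to the median of all genes, in 5xFAD (x axis) and 5xFAD-Dp16 (y axis), 1 point per member. Of 13 mt members (red), 12 lie below 0 in both sections, and most of the 89 nuclear members (blue) lie near or above 0.

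Genes that serve the complexes were read from lists made with the earlier results known. Of 36 further assembly factors with at least 5 CPM, 2 (2.98% of all genes) passed 1.2-fold on the higher side in both Dp16 pairs and none on the lower (1.54%), with medians of 0.17 and 0.15. They were Cox20 and Coa3, both needed to assemble mt-Co1 or mt-Co2 into complex IV. Cox20 was at 97.2, 124, 113 and 132 CPM (0.48 and 0.30), and Coa3 at 266, 295, 278 and 326 CPM (0.28 and 0.31). The 7 electron carriers had medians of 0.23 and -0.02, and cytochrome c (Cycs) was at 486, 521, 475 and 520 CPM (0.23 and 0.20). Of 18 mitochondrial carriers and membrane proteins 1 was higher in both pairs (2.98% of all genes), Timm8b, an import chaperone (0.27 and 0.30). For mtDNA expression (21 genes), the citric acid cycle (19) and glycolysis (16) the medians were -0.001 and 0.09, 0.06 and 0.01, and 0.08 and -0.04, and no gene passed 1.2-fold in the same direction in both pairs.

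Genes known as regulators of mitochondrial biogenesis did not stand higher as a list. The 9 biogenesis regulators with at least 5 CPM had medians of -0.12 and -0.08 in the Dp16 pairs and -0.12 and -0.04 in the 5xFAD pairs. Their mean levels were 7.99 to 38.5 CPM, against at least 100 CPM for 76 of the nuclear members, and the part of abundance was not tested. Ppargc1a, a coactivator of mitochondrial biogenesis, was at 21.5, 18.5, 18.5 and 17.1 CPM (-0.09 and -0.04). Nrf1, which encodes NRF-1, was at 7.89, 7.22, 8.75 and 8.64 CPM (0.004 and 0.05), and Tfam, which packages and transcribes mtDNA, at 30.8, 28.8, 30.1 and 31.7 CPM (0.03 and 0.15). Gabpa, the ETS-domain subunit of GABP and a gene of the duplicated segment, was at 9.55, 12.2, 10.3 and 11.7 CPM (0.49 and 0.25). In plaque spots, 1 assembly factor, 1 gene of mtDNA expression and 1 carrier were at least 1.2-fold higher in both sections (of 36, 21 and 18 genes; 4.17% of all genes): Sdhaf3 (0.33 and 0.45), Mterf3 (0.35 and 0.27) and Ucp2 (0.31 and 0.44). Lower in both (5.76% of all genes) were Nubpl (-0.35 and -0.44), Tefm (-0.47 and -0.75) and Idh2 (-0.35 and -0.28), at 6.15 to 41.7 CPM over the 4 sections.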

How the data were processed

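Visium counts of 4 hemisphere sections were used as deposited: the matrix holds whole-number counts per gene and spot, here UMIs per the labels' Visium kit. The deposited percent of mitochondrial counts per spot equals the share computed here from the 13 mt members. Space Ranger, Seurat and the build mm10 are named in the submitters' processing notes, and their versions and roles are not given in the sources used here. Sections, region labels, expression clusters and plaque marks come from the deposited spot table. Of spot barcodes, 7385 recur in several sections, since they mark positions on the array. Members and gene lists were chosen with earlier results of these data known.

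Counts were summed per section, region, layer or plaque mark and divided by the total. Genes needed a mean of 5 CPM (11033 genes), a sum under 3 counts was set to 3, and log2 ratios were centred on the median of these genes. Intervals of single genes are exact binomial (95%) for 2 sections' counts. Those of the mt to nuclear ratio differences use a normal approximation on the log scale. On simulated Poisson counts 95.3% of the intervals of 10833 unchanged genes held the ratio put in (Dp16 over wild-type). For 50 genes raised 1.2-fold 92% did, and for 50 raised 2-fold 90%. Of the genes raised 1.2-fold, 40% reached the call. Such counts hold only the error that the intervals assume, without variation between animals or sections. A fold of 1.2 was used for calls, with no test between genotypes. Plaque spots were compared within regions weighted by their plaque spots, with intervals from the Poisson error of the weighted sums (normal approximation). Named genes are every mt member, per complex the 3 nuclear subunits of highest mean CPM and the extremes of each effect, isoform pairs and the 5 highest and lowest members in plaque spots; others are named because a count of 5 or fewer holds them or for a role that the text gives, after their values were seen. Alternatives covered scaling (TMM factors from edgeR 4.0.16), region, depth, clusters, minimum and fold. Python 3.11.15 with numpy 2.4.6, scipy 1.17.1 and pandas 2.3.3 was used. Protein sequences were not used here.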

Additional observations from a re-analysis of the deposited data

Results flagged for a closer look

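The complex IV isoforms Cox8b, Cox6b2 and Cox7a1 differed in direction between the 2 pairs that read 5xFAD, and the difference was not tested, since each pair compares 2 sections. Cox8b had a relative log2 ratio of 2.16 in 5xFAD over wild-type and -0.88 in 5xFAD-Dp16 over Dp16, a difference of -3.04. Cox6b2 had 1.12 and -0.86, a difference of -1.98. Cox7a1 had 0.35 and -0.40, a difference of -0.75. The wild-type section was the lowest and the Dp16 section the highest for each, as they were for the sum of choroid plexus markers. Without clusters 12 and 13, wild-type was not the lowest section for Cox7a1 (14.0, 18.4, 13.8 and 14.9 CPM in the order wild-type, Dp16, 5xFAD, 5xFAD-Dp16). Cox6a2, another tissue isoform, went the opposite way, at -0.23 in the first pair and 0.66 in the second, with wild-type highest and Dp16 lowest; that difference was not tested either.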

How the results depend on the processing

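Each genotype had 1 section. No paired analysis was possible because no genotype had a second section, and leaving out a replicate was not possible either. Values below are in the order Dp16 over wild-type, 5xFAD-Dp16 over 5xFAD, 5xFAD over wild-type, 5xFAD-Dp16 over Dp16 unless named. As CPM without centring the nuclear medians were 0.11, 0.083, 0.050 and 0.012 and the mt medians in the pairs over wild-type 0.094 and -0.016, the last with its sign reversed. With a total that left out mt, ribosomal protein and haemoglobin genes the nuclear medians were 0.14, 0.091, 0.069 and 0.013 and the mt median in Dp16 over wild-type 0.12. With TMM factors the nuclear medians over wild-type were 0.20 (Dp16) and 0.10 (5xFAD). The nuclear median of 5xFAD over wild-type was 0.11 without the Hypothalamus label and 0.12 at a minimum of 1 CPM. The count of 5 nuclear members higher in both Dp16 pairs was 0 under the first and second scalings, 2 with TMM factors, 2 after region standardisation, 3 at a minimum of 20 CPM, 3 without assembly factors, 50 at a fold of 1.1 and 0 at a fold of 1.5. The mt to nuclear ratio differences were -0.038, -0.047, -0.11 and -0.12 after region standardisation, -0.000808, -0.025, -0.089 and -0.11 over regions of at least 100 spots, and -0.0099, -0.058, -0.17 and -0.22 as medians over spots. Without clusters 12 and 13 they were -0.017 in Dp16 over wild-type, -0.11 and -0.13 in the 5xFAD pairs, and without VL -0.0055, -0.088 and -0.13. In plaque spots of 5xFAD and 5xFAD-Dp16, matching by expression cluster gave mt medians of -0.0097 and -0.063 and nuclear medians of 0.12 and 0.13. Regions of at least 30 spots of each kind gave nuclear medians of 0.030 and 0.029. The mt median of 5xFAD was -0.011 without matching and -0.13 without the Hypothalamus label, its nuclear median 0.038 as CPM; in 5xFAD-Dp16 the nuclear median was 0.035 without matching and the mt median -0.16 with the finer region labels. Cox6a2 in 5xFAD plaque spots reversed to -0.046 without the Hypothalamus label. The cause of these moves was not tested. The alternatives without VL, without the Hypothalamus label or clusters in plaque spots, and with finer labels or clusters for matching were chosen after seeing the data.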
